A study of Bos taurus with 6 samples.

Results

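CYP11A1, HSD3B1, STAR, FDX1 and FDXR encode the proteins that turn cholesterol into progesterone. They were looked up by exact gene name in the authors' deposited table of bovine blastocyst RNA sequencing, and all 5 were among its 9537 genes. Each of the 5 was found in every one of the 6 libraries, from 282 to 6431 reads per gene and library. The blastocysts were produced in vitro in a standard culture medium (SOFaaci). They were grouped by survival after vitrification, a rapid ice-free form of freezing, into a high and a low cryosurvival group with 3 libraries each. The titles of the high libraries also carry the code V and those of the low libraries NV, which the labels leave unexplained. Neither the time of RNA collection relative to vitrification, nor the breed, nor the number of embryos in a library is stated there. Separate cultures are not stated either, so each p-value reflects the variation among these libraries alone, and part of that variation may be technical.

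Steroid synthesis starts at the mitochondrion. STAR helps to carry cholesterol to the inner mitochondrial membrane, where CYP11A1, the cholesterol side-chain cleavage enzyme, converts it to pregnenolone. CYP11A1 receives its electrons from the iron-sulphur protein FDX1 (adrenodoxin), which FDXR (adrenodoxin reductase) loads from NADPH. HSD3B1 then converts pregnenolone to progesterone. The pathway is best known from the ovary, the adrenal cortex and the placenta, and the trophoblast of cattle also makes progesterone.

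Values are CPM, read counts scaled to a common library size. The reads in the table ranged from 14651477 to 19467022 per library, and the median gene was at 31.9 to 33.6 CPM. The library sizes behind the CPM were adjusted ones: the reads in the table came to 1.10 times the scaled size in low library 2 and to 0.961 to 0.996 times in the other 5. Low library 2 stood apart from the others. It was the highest of the 6 libraries for 34.4% of all genes and the lowest for 35.5%, against at most 22.4% and 21.4% in any other library. Group differences of the 5 genes are therefore given with and without it, and those of many other named genes as well. Genes were compared between groups, and their levels were not ranked against each other, because transcript lengths were not used here.

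STAR, the cholesterol carrier, was at 18.8, 22.4 and 21.5 CPM in high libraries 1, 2 and 3. It was at 17.9, 21.2 and 15.8 CPM in low libraries 1, 2 and 3. The groups overlapped, because low library 2 lay within the high range, while low libraries 1 and 3 were below all 3 high libraries. The means were 20.9 ± 1.89 CPM in the high group and 18.3 ± 2.71 CPM in the low group (SD, n = 3 each). STAR rested on the fewest reads of the 5 genes, 282 to 427 per library, so read counting alone gave a coefficient of variation of 5.13% in the high and 5.66% in the low group.

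CYP11A1, the side-chain cleavage enzyme, was at 118, 136 and 142 CPM in high libraries 1, 2 and 3. In the low group it was at 186, 239 and 111 CPM in libraries 1, 2 and 3. The high libraries were close together, whereas the low group held the 2 highest values and the lowest value of all 6. The means were 132 ± 12.5 CPM in the high group and 179 ± 64.0 CPM in the low group (SD, n = 3 each), a low over high ratio of 1.35. The coefficient of variation was 9.41% in high and 35.8% in low, against 2.04% and 1.86% from counting reads. On the log2 scale the SD of CYP11A1 in the low group was 0.56, at the 85.5th percentile of all genes, and in the high group 0.14, at the 59.8th. Whether the spread differed between the groups was not tested. Without low library 2 the low mean was 149 CPM.

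FDX1, the electron carrier of CYP11A1, was at 67.6, 62.1 and 74.8 CPM in the high libraries and at 53.9, 95.5 and 56.1 CPM in low libraries 1, 2 and 3. The group means were nearly equal, 68.1 ± 6.36 CPM in high and 68.5 ± 23.4 CPM in low (SD, n = 3 each). That equality came from low library 2, which was the highest of the 6, while low libraries 1 and 3 were the lowest. Their mean without library 2 was 55.0 CPM. FDXR, the reductase, was at 127, 130 and 104 CPM in the high and at 113, 141 and 113 CPM in the low libraries. Its means were 120 ± 13.9 and 122 ± 16.0 CPM, and every low library lay above the lowest high library.

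HSD3B1, the enzyme of the last step to progesterone, was at 260, 305 and 357 CPM in high libraries 1, 2 and 3. In low libraries 1, 2 and 3 it was at 311, 247 and 245 CPM. High library 3 was the highest and low libraries 2 and 3 the lowest, but low library 1 lay between high libraries 2 and 3. The means were 307 ± 48.3 CPM in the high group and 267 ± 37.4 CPM in the low group (SD, n = 3 each). Low library 2, the highest of the 6 for CYP11A1, FDX1 and FDXR, was thus not the highest for HSD3B1, where it was at 0.835 times the mean of the other 5 libraries. For CYP11A1 and FDX1 this ratio was 1.72 and 1.52.

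**Figure D1:**
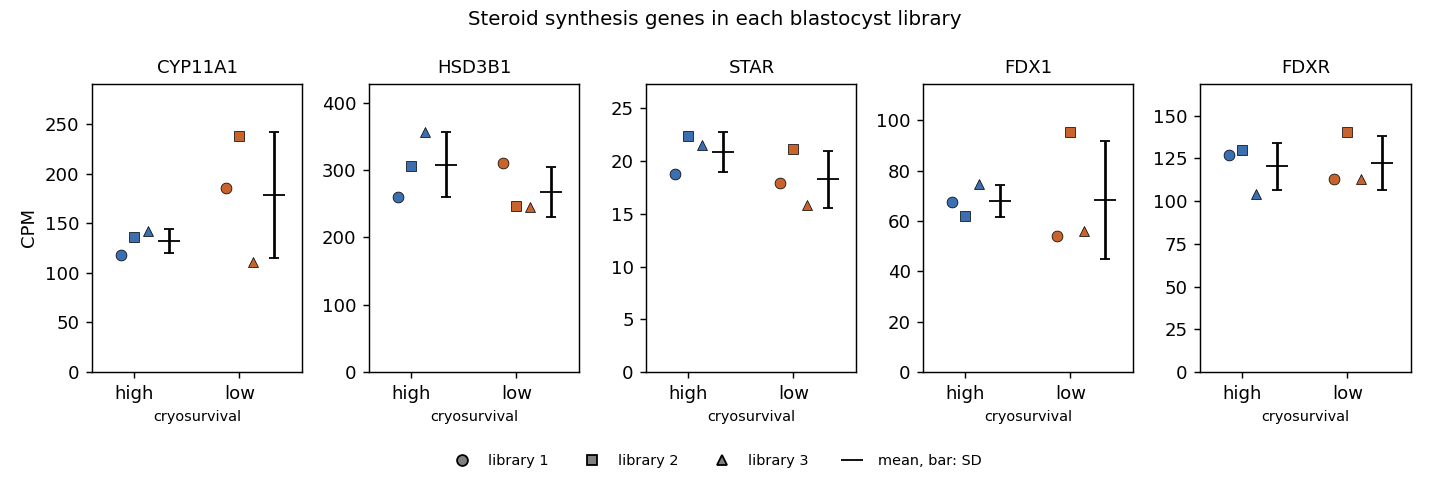
CPM of the 5 steroid synthesis genes in each library, by cryosurvival group, with the group mean and SD beside the points; each vertical axis starts at 0. The 3 high libraries of CYP11A1 lie between 118 and 142 CPM, inside the range of 111 to 239 CPM of the low libraries, and no gene separates the groups.

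The groups were compared by limma on log2(CPM + 1) over the whole table, with Benjamini-Hochberg adjustment over all 9537 genes and a threshold of 0.05. A difference on this scale slightly understates the change of low genes. None of the 5 genes passed, and limma called 0 genes in all (0%), with 1142 genes (12%) at an unadjusted p below 0.05. The alternative fit with voom on the recovered reads also called 0 genes. None of the 5 was among those 1142 genes, and none separated the groups, against 2005 of all genes (21%) whose groups did not overlap. An adjusted p below 0.05 was listed for 114 genes (1.2%) in the authors' deposited table, and none of the 5 was among them.

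CYP11A1 had the largest difference of the 5, a log2 value of 0.37 ± 0.28 (SE) low minus high (limma adjusted p = 0.714). Its 95% interval ran from -0.29 to 1.02, which spans from 0.818-fold to 2.03-fold. A doubling in low cryosurvival embryos was therefore inside the interval. The log2 difference of HSD3B1 was -0.20, with an interval from -0.60 to 0.21 (limma adjusted p = 0.763). STAR was close to it, at -0.19 with an interval from -0.54 to 0.17 (limma adjusted p = 0.737). FDX1 was at -0.04, from -0.60 to 0.52, and FDXR at 0.02, from -0.34 to 0.38 (limma adjusted p = 0.983 and 0.988). After STAR, FDXR had the narrowest interval, from 0.788-fold to 1.31-fold. In the authors' deposited table the log2 values of low over high were 0.433 for CYP11A1, -0.201 for HSD3B1, -0.195 for STAR, 0.006 for FDX1 and 0.021 for FDXR, with adjusted p values from 0.698 for CYP11A1 to 1 for FDX1 and FDXR. An exact two-sided permutation test of 3 against 3 libraries, which cannot give a p below 0.1, gave p = 0.4 for CYP11A1, 0.3 for HSD3B1, 0.2 for STAR and 1 for FDX1 and FDXR.

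Leaving out low library 2 changed the order of the genes. The log2 difference of FDX1 became -0.30, with an interval from -0.55 to -0.05, and that of STAR -0.29, from -0.56 to -0.03. These 2 genes then had unadjusted p values of 0.0265 and 0.0351, and limma adjusted p values of 0.0984 and 0.115. In this comparison of 2 low with 3 high libraries 35.1% of all genes had an unadjusted p below 0.05 and 1300 genes (13.6%) passed after adjustment, so 2 of 5 genes is near the background. The difference of CYP11A1 shrank to 0.12, that of HSD3B1 to -0.14, and that of FDXR turned to -0.08 (limma adjusted p = 0.712, 0.563 and 0.648). None of the 5 genes passed the threshold.

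**Figure D2:**
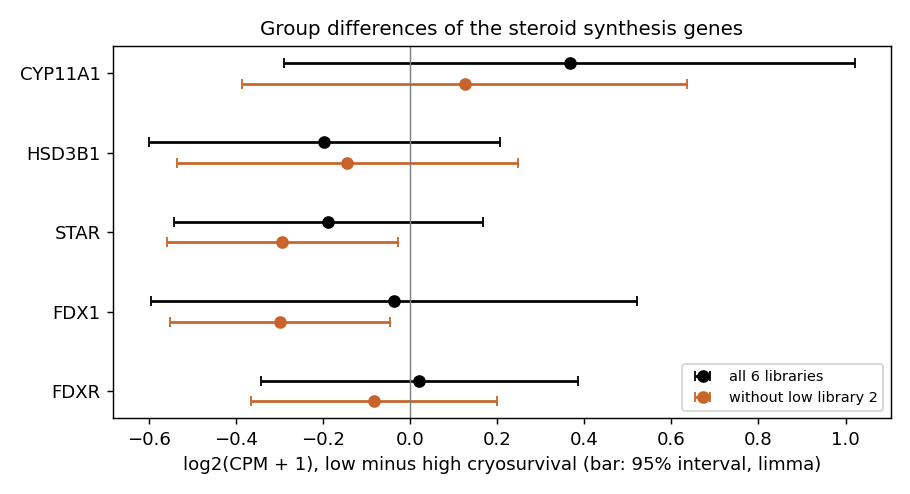
Differences of log2(CPM + 1), low minus high cryosurvival, for the 5 genes, with 95% intervals from limma, in all 6 libraries (black) and without low library 2 (orange). Every interval over the 6 libraries spans 0; without low library 2 those of FDX1 and STAR end at -0.05 and -0.03.

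Ratios between genes within a library do not depend on how that library was scaled, and 4 of them were compared. The CPM ratio of CYP11A1 to STAR was 6.31, 6.08 and 6.62 in high libraries 1, 2 and 3, and 10.4, 11.3 and 7.03 in low libraries 1, 2 and 3. All 3 low libraries were above all 3 high libraries. The mean log2 ratio was 2.66 ± 0.06 in high and 3.23 ± 0.36 in low (SD, n = 3 each), a difference of 0.57. The exact two-sided permutation p was 0.1, the smallest that 3 against 3 libraries allow, and 0.267 after Benjamini-Hochberg adjustment over the 4 ratios. Of the 9532 other genes above 0 in every library, 16.8% had a ratio to STAR that was likewise higher in all low libraries. The separation was therefore shared by many genes and did not pass adjustment.

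The ratio of CYP11A1 to HSD3B1, the enzymes before and after pregnenolone, was 0.455, 0.446 and 0.399 in the high libraries and 0.600, 0.967 and 0.454 in low libraries 1, 2 and 3. Low library 3 fell just inside the high range, and low library 2, with the highest CYP11A1 and a low HSD3B1, had the largest ratio. The log2 difference of this ratio was 0.57 (exact permutation p = 0.2). For CYP11A1 to its electron donor FDX1 the ratio was 1.75, 2.19 and 1.91 in the high and 3.46, 2.50 and 1.98 in the low libraries, a log2 difference of 0.41 (exact permutation p = 0.2). Low library 1 had the most CYP11A1 per FDX1, since the high CYP11A1 of low library 2 came with a high FDX1. The ratio of FDX1 to FDXR ranged from 0.478 to 0.716 in high and from 0.477 to 0.679 in low libraries (log2 difference -0.06, exact permutation p = 0.6).

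**Figure D3:**
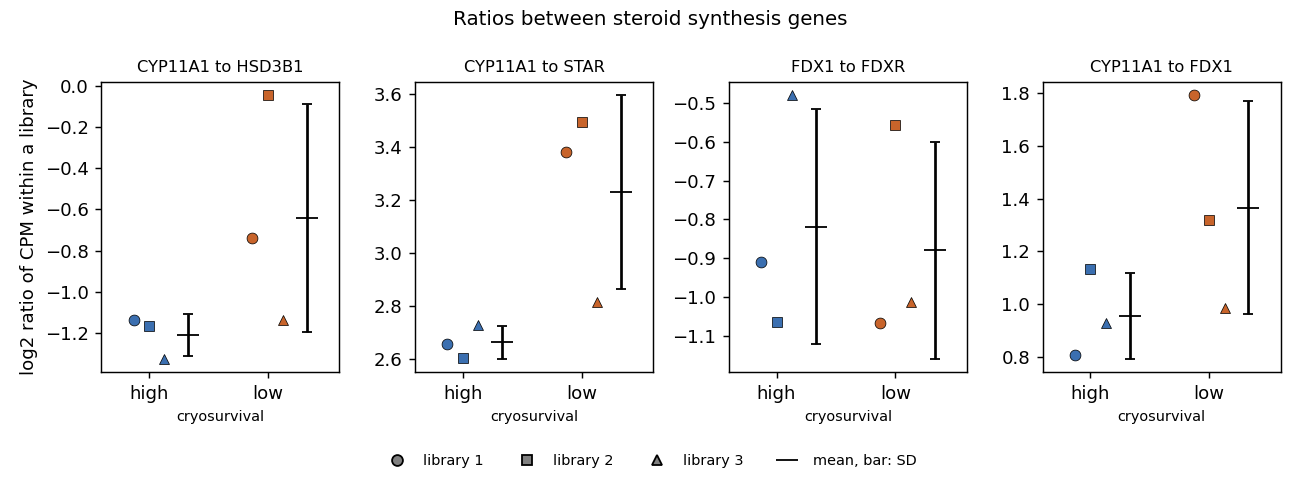
Log2 ratio of CPM between pairs of steroid synthesis genes within each library, with the group mean and SD; the vertical axes differ and do not start at 0. For CYP11A1 to STAR the 3 high libraries lie between 2.60 and 2.73 and the 3 low libraries between 2.81 and 3.49.

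Over the 6 libraries the 5 genes did not follow a single order. Among their 10 pairs Pearson's r of log2(CPM + 1) ranged from -0.60 for HSD3B1 and FDXR to 0.61 for STAR and FDX1, and Spearman's rho from -0.60 to 0.54 for the same pairs. The smallest permutation p was 0.193 for r and 0.242 for rho, and after Benjamini-Hochberg adjustment over the 10 pairs the smallest were 0.597 and 0.806. CYP11A1 and FDX1, the enzyme and its electron donor, had r = 0.56 and rho = 0.37, and r = -0.26 without low library 2. CYP11A1 and HSD3B1 had r = 0.001 and rho = 0.37, and r = 0.67 without it. In another check the 2 libraries farthest from the median of the first-named gene of each pair were left out, so the libraries used differ between pairs. Over the 4 libraries left, r was -0.74 for HSD3B1 and FDXR, 0.85 for STAR and FDX1 and 0.70 for CYP11A1 and FDX1. Among the 10 pairs it ranged from -0.89 for HSD3B1 and FDX1 to 0.97 for CYP11A1 and HSD3B1.

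Of the 7096 other genes with a mean of at least 10 CPM, those whose values over the 6 libraries were most like CYP11A1 were the chemokine CXCL5 (r = 0.99), the tubulin gene TUBB6 (0.98) and RBMS1, an RNA-binding protein gene (0.98). CXCL5 was at 13.4, 16.4 and 16.3 CPM in the high and 21.7, 28.6 and 13.9 CPM in the low libraries, with the same low library highest as in CYP11A1. The closest to HSD3B1 were TPM4, a tropomyosin gene (r = 0.97), FAM118A (0.96) and ACP6, an acid phosphatase gene (0.96). Over 6 libraries such values are a description: 45 genes had an r above 0.9 with CYP11A1 and 20 with HSD3B1. None of these 6 genes passed limma, with adjusted p values from 0.606 for TUBB6 to 0.942 for TPM4.

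Around the 5 genes, a list of 95 other genes of steroid synthesis and response was examined, of which 57 were in the table. Limma called 0 of the 57. At an unadjusted p below 0.05 there were 8 (14.0%, against 12% of all genes), 4 higher and 4 lower in low cryosurvival embryos. The groups did not overlap for 13 of the 57 (22.8%, against 21%). The median log2 difference was -0.01, with 27 genes higher and 30 lower, against 0.00 over all genes. The list as a whole was thus near the background in each measure. Without low library 2 limma called 8 of the 57 (14.0%, against 13.6%), 5 higher and 3 lower.

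Of the genes of cholesterol supply to the mitochondrion, 14 were measured, 7 higher and 7 lower in low, with a median log2 difference of 0.01. SOAT1, which stores cholesterol as esters, was at 358 ± 38.5 CPM in the high libraries and 412 ± 21.0 CPM in the low, and NPC1, which releases cholesterol from lysosomes, at 311 ± 24.3 and 260 ± 110 CPM (SD, n = 3 each). SOAT1 was 1 of the 3 of 14 genes whose groups did not overlap (21.4%, against 21% of all genes). Its limma adjusted p was 0.640. NPC1 was at 136 CPM in low library 2 against 345 and 299 CPM in the other low libraries. The log2 difference of NPC1 moved from -0.36 to 0.05 when library 2 was left out. STARD3, a relative of STAR that has been linked to cholesterol transport in the placenta, was named after its values were seen. It was at 96.0 ± 2.51 CPM in the high libraries and 92.5 ± 8.26 CPM in the low. Its log2 difference was -0.06 (limma adjusted p = 0.930), or -0.12 without low library 2 (limma adjusted p = 0.362). The electron transfer group had 5 measured genes, 2 higher and 3 lower, with differences from -0.23 to 0.18. Its most abundant members were CYB5R3, a cytochrome b5 reductase, at 503 ± 61.8 and 508 ± 108 CPM, and CYB5B, a mitochondrial cytochrome b5, at 213 ± 8.76 and 245 ± 53.7 CPM. Without low library 2 the log2 difference of CYB5R3 went from -0.004 to 0.18 and that of CYB5B from 0.18 to 0.008.

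The other steroid enzymes leaned lower in low cryosurvival embryos, with 13 of 17 measured genes lower (76.5%, against 50% of all genes), a median log2 difference of -0.14, and 0 called by limma. In low library 2 the median lay only 0.06 below the high mean, against 0.24 and 0.26 in low libraries 1 and 3. Without library 2 the median was -0.31, with 12 of 17 lower and 3 called by limma (17.6%, against 13.6% of all genes), HSD3B7 higher and HSD17B14 and DHRS11 lower. At an unadjusted p below 0.05 there were 4 of the 17 (23.5%, against 12% of all genes), 1 higher and 3 lower. The higher one was HSD3B7, a relative of HSD3B1 that works in bile acid synthesis. It was at 10.9, 7.66 and 9.21 CPM in the high and at 17.1, 21.0 and 17.5 CPM in the low libraries. The groups were clearly apart, and the low mean was 2.01 times the high mean. The log2 difference was 0.94 ± 0.16 (SE), and the limma adjusted p was 0.142, or 0.0217 without low library 2. In the authors' deposited table HSD3B7 had an adjusted p of 0.018, and it was the only 1 of the 57 below 0.05 there (1.75%, against 1.2%). HSD3B7 and HSD3B1 thus lay on opposite sides of 0, at 0.94 and -0.20, although the difference between them was not tested.

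HSD17B14 and HSD17B11, 2 members of the 17-beta hydroxysteroid dehydrogenase family, had the smallest p values among the lower enzymes. HSD17B14 was at 13.4 ± 1.66 CPM in the high libraries and 9.20 ± 0.817 CPM in the low and HSD17B11 at 148 ± 5.64 and 117 ± 8.24 CPM (SD, n = 3 each). HSD17B14 had a limma adjusted p of 0.239 and HSD17B11 of 0.319, which became 0.0340 and 0.0502 without low library 2. The groups did not overlap for either gene. The third was SRD5A3, a member of the steroid reductase family named after its value was seen. Its log2 difference was -0.46, with groups that did not overlap and a limma adjusted p of 0.336. Without low library 2 the difference was -0.31, with a limma adjusted p of 0.0746. The most abundant enzymes were DHRS11, a short-chain dehydrogenase, at 488 ± 12.7 and 406 ± 54.7 CPM, with groups that did not overlap, and AKR1B1, an aldose reductase, at 299.97 ± 28.7 and 251 ± 52.1 CPM. DHRS11 had a limma adjusted p of 0.517, and of 0.0379 without low library 2. CYP17A1, which leads from progesterone and pregnenolone towards androgens, was at 213, 248 and 263 CPM in the high and at 233, 168 and 143 CPM in the low libraries. Low library 1 lay among the high libraries and the other 2 below them (log2 difference -0.44, limma adjusted p = 0.478). Without low library 2 the limma adjusted p of CYP17A1 was 0.228. CYP19A1, the aromatase that makes oestrogens, was at 12.3 to 14.5 CPM in the high and at 11.8 to 17.97 CPM in the low libraries. Its limma adjusted p was 0.880, or 0.143 without low library 2.

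**Figure D4:**
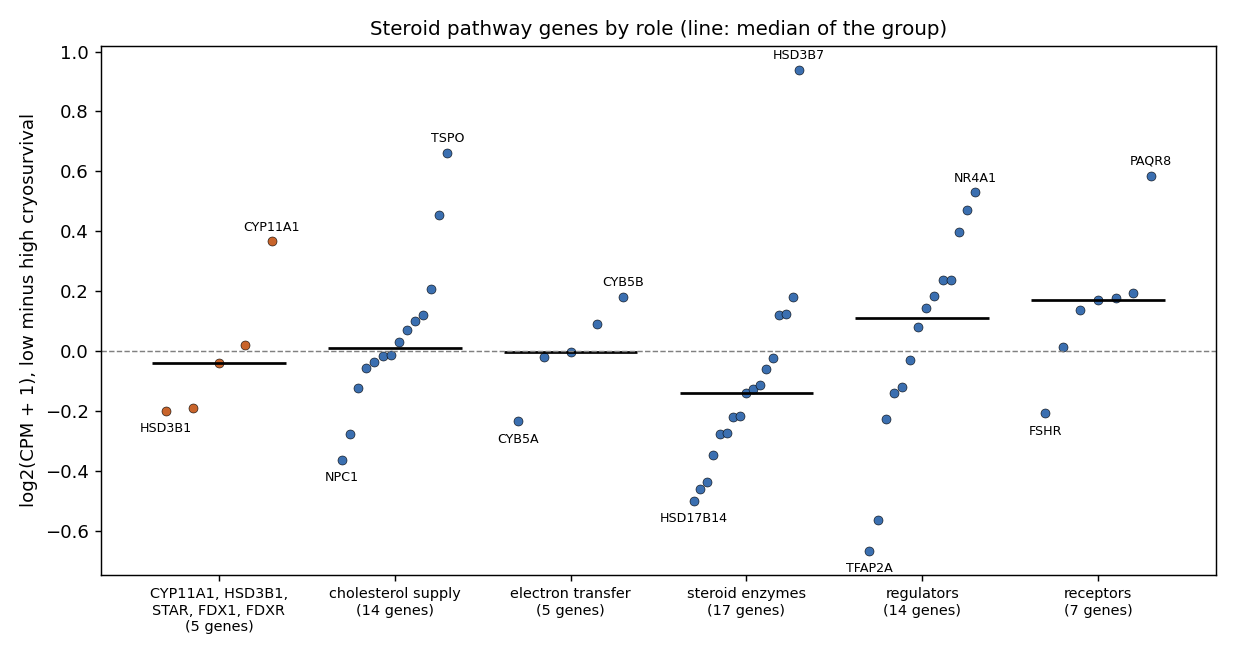
Difference of log2(CPM + 1), low minus high cryosurvival, of each measured steroid pathway gene, grouped by role; each point is a gene, the black line is the median of the group, and the highest and lowest gene are named. The 5 synthesis genes span from -0.20 for HSD3B1 to 0.37 for CYP11A1, and HSD3B7, at 0.94, lies highest of all.

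Among regulators of steroid synthesis, 14 genes were measured, 8 higher and 6 lower in low, with a median log2 difference of 0.11 and 0 called by limma. Without low library 2 the median was 0.29 and limma called 3 of the 14 (21.4%, against 13.6% of all genes), each higher in low. These were NR4A1, SP1 and PRKAR2A, named after their values were seen, with limma adjusted p values of 0.0239, 0.0210 and 0.0288. TFAP2A, a trophoblast transcription factor, was at 33.0 ± 4.38 CPM in the high libraries and 20.7 ± 5.21 CPM in the low, and GATA4, a factor of steroid-making cells and of the hypoblast, at 7.82 ± 1.75 and 11.1 ± 1.10 CPM (SD, n = 3 each). The groups did not overlap for either gene, with limma adjusted p values of 0.270 and 0.355, which became 0.0747 and 0.101 without low library 2. The most abundant regulators were PRKAR1A, a regulatory subunit of the cAMP-dependent kinase, at 391 ± 7.12 and 419 ± 86.4 CPM, and TFAP2C, at 283 ± 4.09 and 260 ± 8.81 CPM. The log2 difference of PRKAR1A turned from 0.08 to -0.08 without low library 2. The groups of TFAP2C did not overlap either, which made 3 of the 14 regulators (21.4%, against 21% of all genes). NR5A1, the main activator of CYP11A1 in ovary and adrenal, was looked up by exact gene name and was not in the table.

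Receptors were higher in low in 6 of 7 measured genes (85.7%, against 50% of all genes), with 0 called by limma. Their median log2 difference was 0.17, or 0.09 without low library 2. The lower gene was FSHR, named after its value was seen, at -0.21 with groups that did not overlap. PAQR8, a membrane progesterone receptor, was at 1.68 ± 0.101 CPM in the high libraries and 3.06 ± 0.730 CPM in the low (SD, n = 3 each). Its groups did not overlap either, which made 2 of the 7 receptors (28.6%, against 21% of all genes). For PAQR8 limma gave an adjusted p of 0.224, and of 0.0296 without low library 2. It was then the only 1 of the 7 receptors called (14.3%, against 13.6% of all genes). PGRMC1, a progesterone-binding membrane protein, was at 123 ± 11.1 and 142 ± 22.1 CPM, and the orphan nuclear receptor ESRRA at 124 ± 13.9 and 146 ± 58.5 CPM. Neither difference exceeded the spread of the low group. Without low library 2 the log2 difference of PGRMC1 went from 0.19 to 0.09 and that of ESRRA turned from 0.17 to -0.14.

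Steroid synthesis genes are also active in the cumulus and granulosa cells that surround the oocyte, so markers of these cells were read in the same libraries. Of 14 such markers 6 were in the table, and their summed level was 45.5 to 52.6 CPM in high and 35.3 to 49.4 CPM in low libraries. The lowest sum was in low library 2. INHBA, named after its values were seen, was instead highest there, at 4.13 CPM, alone among the 6. Without low library 2 the log2 difference of INHBA went from -0.24 to -0.53 (limma adjusted p = 0.0289). INHBA was then the only 1 of the 6 called (16.7%, against 13.6% of all genes). By gene, 5 of the 6 were lower in low (83.3%, against 50% of all genes). The median log2 difference of the 6 was -0.22, or -0.09 without low library 2. The most abundant of the 6 were GATM, at 19.3 ± 3.86 and 15.2 ± 4.23 CPM, and CYP19A1, which is also among the steroid enzymes above. FSHR, the receptor of follicle-stimulating hormone, named after its values were seen, was at 8.81 ± 0.211 and 7.51 ± 0.561 CPM. The defining markers FOXL2, AMH, INHA and NR5A1 were looked up by exact gene name and were not in the table. As its low-count filter was not given, this does not show whether they were expressed. No measured marker was at 0 in any library. Of 7 markers of theca, luteal and adrenal cells only CYP17A1 and PTGFR were in the table. PTGFR was at 2.54 ± 0.411 and 3.54 ± 2.1 CPM, with 4.99, 1.13 and 4.50 CPM in low libraries 1, 2 and 3. Its log2 difference was 0.23 (limma adjusted p = 0.906), or 0.71 without low library 2 (limma adjusted p = 0.0224). It was then the only 1 of these 2 markers called (50%, against 13.6% of all genes). CYP17A1 went the other way, at -0.44, or -0.39 without low library 2. Trophectoderm markers, 8 of 12 measured, summed to 30954 to 34185 CPM in high and 26423 to 36445 CPM in low libraries, with the keratin KRT8 at 18212 ± 1044 and 18187 ± 3271 CPM. These sums were carried by KRT8 and KRT18, and the highest was in low library 2. The log2 difference of KRT8 was -0.02, or -0.15 without low library 2. By gene, 7 of these 8 markers were lower in low (87.5%, against 50% of all genes), beside the 13 of 17 steroid enzymes. The median log2 difference of the 8 markers was -0.19, or -0.26 without low library 2. The groups did not overlap for 4 of the 8 (50%, against 21% of all genes), 1 higher and 3 lower in low. Epiblast markers, 5 of 6 measured, summed to 892 to 1022 and 807 to 1126 CPM, sums carried by POU5F1. By gene, 3 of the 5 were higher and 2 lower in low, with a median log2 difference of 0.004. SOX2 was among the higher genes, with a log2 difference of 0.26 (limma adjusted p = 0.666). The epiblast factor NANOG was lower in every low library, at 12.2 to 22.1 CPM against 31.1 to 47.3 CPM in the high libraries (log2 difference -1.23, limma adjusted p = 0.164). Its adjusted p in the authors' deposited table was 0.002. Over the 6 libraries limma called 0 of the 5 epiblast markers. Without low library 2 it called 3 of the 5 (60%, against 13.6% of all genes), 1 higher and 2 lower. These were LIN28A, higher, and NANOG and DPPA3, lower. NANOG, SOX2, LIN28A and DPPA3 were named after their values were seen. Hypoblast markers, 4 of 6 measured, summed to 78.9 to 103 and 70.2 to 106 CPM. The part of these cell types in the values of the 5 genes was not tested, and fewer cells of a type and less RNA per cell cannot be told apart in whole-embryo libraries.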

How the data were processed

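RNA was column-purified and DNase-treated, had an integrity number of at least 7.7, and was made into libraries with the NEBNext Ultra II kit, per the labels' protocols. Per the submitters' processing notes, the tools were HTSeq 0.5.4p2, DESeq 1.12.1, TopHat2 2.0.8, Bowtie2 2.1.0, SAMtools 0.1.18 and Cufflinks 2.1.1; their roles, build, annotation, strand use and low-count filter were not given in the sources used. Without stated strand use, reads of overlapping or antisense genes cannot be told apart. The authors deposited CPM with 3 decimals, a log2 fold of high over low (its sign is turned here) and p-values, per the file headers and values. The authors' CPM up to 1000 were whole multiples of 1 read per library within 0.05 read for 100% of values, against 9.32% to 10.4% of random values, which gave the read counts; intervals from reads cover counting error only. The lowest mean was 0.737 CPM; no filter was added.

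Groups followed the labelled cryosurvival. Limma 3.58.1 in R 4.3.3 fitted log2(CPM + 1) of all genes without covariates, and the steps were tested on simulated data. The genes, lists and tests were chosen with earlier results of these data known. Beside the 5 genes, the text names the 3 pathway genes with the smallest p per direction, the 2 most abundant per sub-list, up to 2 per marker list, and the 3 genes with the highest r to CYP11A1 and to HSD3B1; others are marked. Alternatives were a pseudocount of 0.1, a minimum mean of 1 CPM, each library left out, a replicate block, equal library medians and, added after the data were seen, voom. edgeR and DESeq2 fits had been planned and were not run; voom took their place on the recovered reads.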

Additional observations from a re-analysis of the deposited data

How the results depend on the processing

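None of the 5 genes passed the limma threshold under any alternative that was run, with adjusted p values from 0.0984 to 0.9997. CYP11A1, HSD3B1 and STAR kept their direction in all of them. With each library left out in turn the log2 differences ranged from 0.12 to 0.67 for CYP11A1, -0.31 to -0.09 for HSD3B1, -0.29 to -0.09 for STAR, -0.30 to 0.11 for FDX1 and -0.084 to 0.078 for FDXR. FDX1 turned to 0.03 without high library 3, 0.11 without low library 1 and 0.08 without low library 3; FDXR turned to -0.078 without high library 3 and to -0.084 without low library 2. The ratio differences ranged from 0.27 to 0.82 for CYP11A1 to HSD3B1, 0.43 to 0.77 for CYP11A1 to STAR, 0.20 to 0.60 for CYP11A1 to FDX1 and -0.22 to 0.11 for FDX1 to FDXR. Calls over all genes ranged from 0 to 1300, the latter without low library 2, and were 7 with a pseudocount of 0.1 CPM and 7 with equal library medians; the cause was not tested. The pathway median ranged from -0.034 to 0.033 and its calls from 0 to 8 with a library left out. Deviations of same-numbered libraries from their group means correlated at 0.12, -0.26 and -0.31, and those of differently numbered ones at -0.36 to 0.37. With 3 libraries per group these values cannot decide whether the replicate numbers pair the libraries. With the replicate number as a block limma called 0 genes, with 797 at an unadjusted p below 0.05, and CYP11A1 was at 0.37 (adjusted p = 0.827). STAR, at the lowest depth, is most limited by counting. The planned edgeR and DESeq2 alternatives were not run, and voom, added after the data were seen, took their place.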
